A study of Mus musculus with 35 samples.

Results

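The expression of 48 genes encoding Wnt ligands, their receptors and the secreted proteins that modulate them was examined across 6 subpopulations of sorted mouse mammary cells from parous and nulliparous mice. Members were the single-symbol genes whose names match the Wnt, Fzd, Rspo, Sfrp or Dkk families, together with Lrp5, Lrp6, Wif1, Ror1, Ror2, Ryk, Porcn and Wls. Wnt4 lies outside that rule. The 48 genes are part of 19937 genes measured, and each of them was read by 1 probe set. They comprise 18 Wnt ligands, 2 genes of ligand secretion, 4 R-spondins, 10 Frizzled receptors, 5 co-receptors and 9 secreted inhibitors.

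In the parous group, mating at 42 days of age was followed by 21 days of lactation and 40 days of involution, in which the gland regresses. The nulliparous mice were virgins of the same age. From the 4th mammary glands of both histories, flow cytometry separated stromal cells, total epithelial cells, luminal cells without (Sca1-negative) or with Sca1 (Sca1-positive), and basal cells with low or high CD49f. Sca1 and CD49f are surface proteins, and CD49f is an integrin subunit. Each sample was labelled as a biological replicate from 5 mice and run on 1 array, with 3 samples per group and 35 in all, since parous basal CD49f-high cells had 2. The labels do not say whether same-numbered samples of different subpopulations came from the same mice. Same-numbered samples of 1 history deviated together across subpopulations (correlations of 0.01 to 0.34, against -0.28 to 0.07 for other numbers), so the 35 samples may rest on as few as 3 pools per history. RNA was amplified from 2000 cells for each CD49f-high sample and from 10000 for the others, so the number of cells and this sort cannot be told apart. No strain, transgene or treatment is named in the labels.

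Wnt proteins are lipid-modified by the acyltransferase Porcn, carried to the cell surface by Wls, and bind Frizzled receptors. With Lrp5 or Lrp6 they stabilise beta-catenin, while Ror1, Ror2 and Ryk take part in branches that do not need it. R-spondins bind Lgr receptors and keep Frizzleds at the surface by blocking the ligases Znrf3 and Rnf43, whereas Sfrp and Wif1 proteins bind Wnts and Dkk1, Dkk2 and Dkk4 act on Lrp5 and Lrp6. In the mammary gland this pathway is known for its part in branching and in the upkeep of basal stem cells.

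The deposited values were log2 expression, so a difference of 1 unit is a 2-fold difference. Of the 48 members, 17 had no group mean above 6.0, the median of all values in the table. These were 9 ligands (Wnt1, Wnt2b, Wnt3, Wnt3a, Wnt6, Wnt7a, Wnt8a, Wnt8b and Wnt16), Rspo2, Rspo3, Rspo4, Fzd8, Fzd10, Dkk1, Dkk4 and Sfrp5. They are called dim here and stayed in every test. A low probe signal does not show that a gene was silent. Replicates correlated across genes at r = 0.977 to 0.991 with 10000 cells and at 0.963 to 0.978 with 2000 cells. The mean SD around the group mean of the 48 members was 0.21 in basal CD49f-high cells and 0.16 to 0.17 elsewhere. Of 8 basal and myoepithelial markers, 8 were higher in basal than in luminal cells, and of 8 luminal markers 8 were lower. Of 8 fibroblast markers, 8 were higher in stromal than in total epithelial cells. The stromal samples also carried epithelial markers, with a mean log2 level of the basal list of 7.47 to 8.11 and of the luminal list of 6.76 to 8.84 per sample. Ly6a, the gene of Sca1, had no probe set of its own. In such bulk samples, fewer cells of a type and less RNA per cell cannot be told apart.

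Differences were tested with limma over all 19937 genes, and a member was called when its Benjamini-Hochberg adjusted p was under 0.05. Between basal and luminal cells, 22 of 48 members (45.8%) were called, against 35.0% of all genes, with 18 higher (37.5%, against 15.5%) and 4 lower in basal cells (8.33%, against 19.5%). Between luminal Sca1-positive and Sca1-negative cells, 11 were called (22.9%), against 16.1% of all genes, with 4 higher (8.33%, against 9.0%) and 7 lower in Sca1-positive cells (14.6%, against 7.11%). Stromal and total epithelial cells differed in 22 members (45.8%), against 29.2% of all genes, with 12 higher (25%, against 13.6%) and 10 lower in stromal cells (20.8%, against 15.6%). Stromal and basal cells differed in 27 (56.2%), against 30.9% of all genes, with 11 higher (22.9%, against 13.7%) and 16 lower in stromal cells (33.3%, against 17.2%). These comparisons share samples. All samples of one side lay above all of the other for 6 of 48 members between basal and luminal cells (4.67% of all genes), 4 between the luminal subpopulations (8.38%), 14 between stromal and total epithelial cells (16.8%) and 12 between stromal and basal cells (8.75%). Between basal CD49f-high and CD49f-low cells, limma called 0 members, against 3.54% of all genes, and 7 had an unadjusted p under 0.05.

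**Figure D1:**
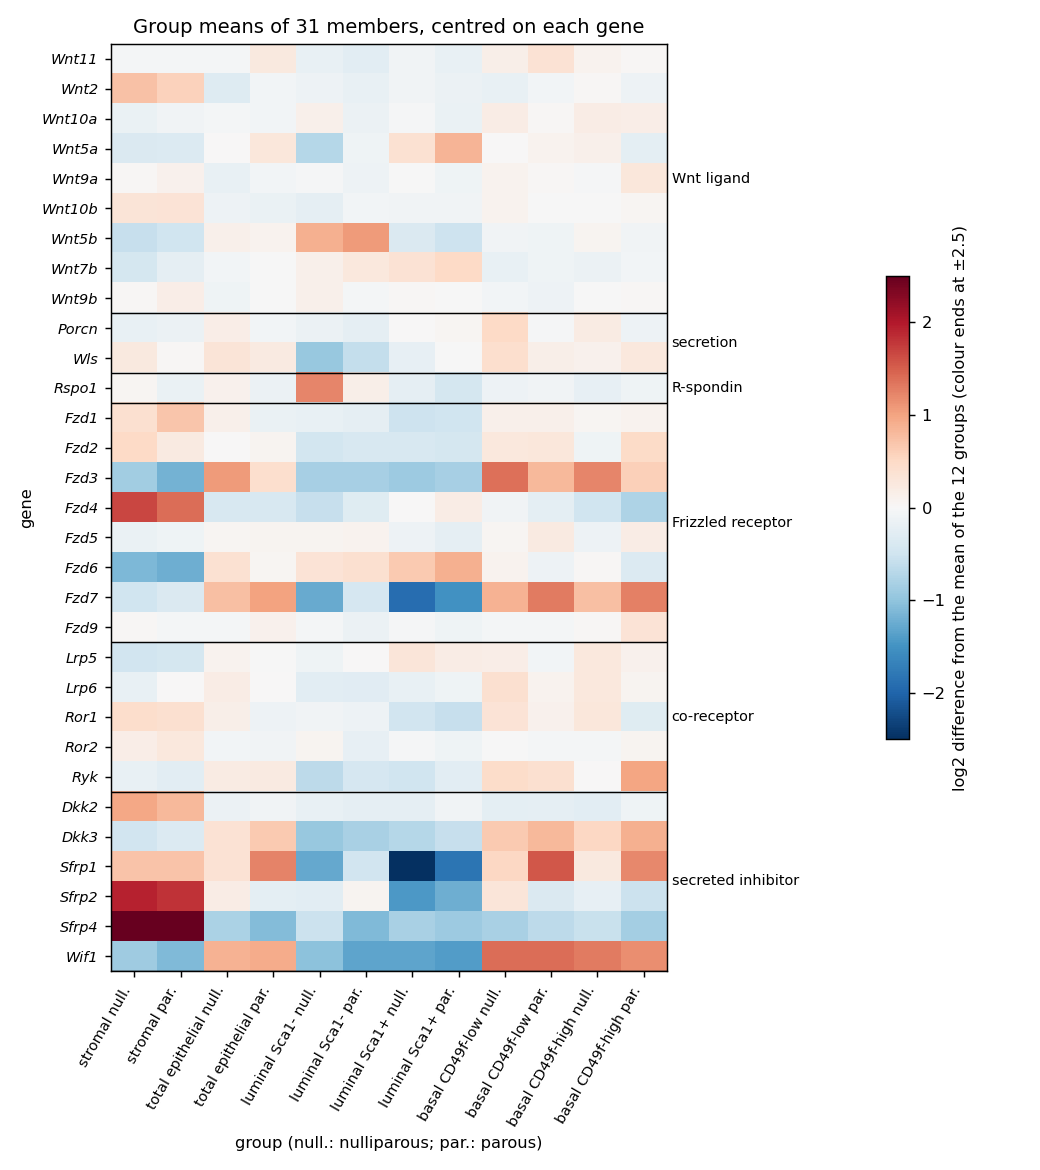
Mean log2 expression of the 31 members with a group mean above 6.0, in each of the 12 groups (columns), as the difference from that gene's mean over the 12 groups; red is higher and blue is lower, and members are ordered by role. Sfrp4, Sfrp2, Fzd4 and Dkk2 are red in both stromal columns, Wif1, Fzd3 and Dkk3 in the basal columns, and Rspo1 in nulliparous luminal Sca1-negative cells.

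When 5 subpopulations were compared pair by pair, leaving out the total epithelial sort, 11 members were higher in 1 of them than in each of the other 4. This was 22.9% of members, against 14.9% of all genes. In stromal cells there were 8 (Sfrp2, Sfrp4, Dkk2, Fzd1, Fzd4, Wnt2, Wnt10b and Rspo3), which is 16.7% of members against 7.0% of all genes. Luminal Sca1-negative cells had 2, Rspo1 and Wnt5b (4.17%, against 1.58% of all genes), and luminal Sca1-positive cells had 1, Wnt5a (2.08%, against 5.50%). Neither basal subpopulation had one, against 0.421% and 0.406% of all genes.

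Among the Wnt ligands, the closely related Wnt5a and Wnt5b lay highest in opposite luminal subpopulations. Both are known mainly for signalling that does not need beta-catenin. Wnt5b lay between 7.76 and 8.61 in luminal Sca1-negative samples (median 8.23, n = 6) and between 6.54 and 6.94 in Sca1-positive samples (median 6.84, n = 6). Every Sca1-negative sample was above every Sca1-positive one, and the difference was -1.42 (Sca1-positive minus Sca1-negative, SE 0.12, adjusted p = 5.0e-10), a 2.67-fold difference. Basal minus luminal was -0.31 (SE 0.09, adjusted p = 0.00563), a call lost only when parous replicate 3 was left out of every subpopulation (adjusted p = 0.0922). The stromal, CD49f-low and CD49f-high samples of Wnt5b had medians of 6.70, 7.14 and 7.21.

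Wnt5a lay between 6.28 and 7.60 in Sca1-positive samples (median 7.23, n = 6) and between 5.46 and 6.47 in Sca1-negative samples (median 6.30, n = 6). These ranges overlap in a single Sca1-positive sample, nulliparous replicate 3. The difference was 1.02 (SE 0.15, adjusted p = 7.0e-06). Basal minus luminal was -0.11 for Wnt5a and did not pass (SE 0.11, adjusted p = 0.493): Sca1-positive cells were above CD49f-low cells by 0.56 (SE 0.15) and Sca1-negative cells differed from them by -0.46 (SE 0.15). Medians were 6.18 in stromal cells, 6.52 in CD49f-low cells and 6.59 in CD49f-high cells.

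Wnt5b has 3 promoters in the RefSeq table used here (GRCm38.p6), and 2 of them held a match to a searched motif. They are shown because Wnt5b is the ligand with the largest luminal difference. Their numbering is that of the promoters shown and leaves out the unmatched promoter, which lies upstream of both. The capitals mark TTCNNNGAA, a STAT motif, in the first and CTTTGAT, a TCF/LEF motif, in the second; STAT factors act downstream of prolactin and TCF/LEF factors downstream of beta-catenin. Both run 5′ to 3′ on the minus strand, over the 250 bases before the start site, at chr6:119467212-119467461 and chr6:119449387-119449636.
Wnt5b first promoter: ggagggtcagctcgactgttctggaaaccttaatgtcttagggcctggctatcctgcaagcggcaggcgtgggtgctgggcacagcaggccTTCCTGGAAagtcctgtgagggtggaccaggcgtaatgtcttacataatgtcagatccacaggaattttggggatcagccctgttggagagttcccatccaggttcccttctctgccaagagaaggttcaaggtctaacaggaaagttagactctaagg
Wnt5b second promoter: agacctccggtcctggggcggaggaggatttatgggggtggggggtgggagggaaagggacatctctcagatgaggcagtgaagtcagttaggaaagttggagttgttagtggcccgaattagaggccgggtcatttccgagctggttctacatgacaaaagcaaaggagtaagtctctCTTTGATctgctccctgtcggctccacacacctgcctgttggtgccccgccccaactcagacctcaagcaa

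Wnt7b, which is known for beta-catenin signalling in epithelia, was higher in luminal cells. Its Sca1-positive samples lay between 6.50 and 6.85 (median 6.77, n = 6) and its Sca1-negative samples between 6.23 and 6.68 (median 6.49, n = 6). CD49f-low samples lay between 5.77 and 6.29 and CD49f-high samples between 6.02 and 6.32. The luminal and basal ranges overlap slightly, and basal minus luminal was -0.44 (SE 0.07, adjusted p = 2.3e-06).

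Wnt2, a ligand known from mesenchyme, lay between 5.68 and 6.60 in stromal samples (median 5.94, n = 6) and between 4.96 and 5.44 in total epithelial samples (median 5.22, n = 6). No stromal sample fell to the total epithelial range, and the difference was 0.86 (SE 0.12, adjusted p = 1.4e-06). Wnt10b was also higher in stromal cells (0.47, SE 0.10, adjusted p = 4.2e-04), with stromal samples between 6.0 and 6.31 and total epithelial samples between 5.60 and 5.74. The third ligand higher in stromal than in total epithelial cells was the dim Wnt16 (0.23, SE 0.08, adjusted p = 0.0296).

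The 4 ligands higher in basal than in luminal cells differed by little. They were Wnt11 (0.34, SE 0.05, adjusted p = 4.4e-06), Wnt10a (0.20, SE 0.06, adjusted p = 0.0151) and the dim Wnt6 (0.19, SE 0.05) and Wnt7a (0.14, SE 0.06). Pair by pair, Wnt10a, Wnt6 and Wnt7a did not pass between either luminal subpopulation and CD49f-low cells (luminal minus CD49f-low -0.21 to -0.00). Each passed in a pair with CD49f-high cells, the sort of 2000 cells. Wnt11 lay between 6.16 and 6.50 in CD49f-low cells and between 5.62 and 6.08 over both luminal subpopulations. Of the 18 ligands, 4 were higher in this comparison (22.2%, against 15.5% of all genes) and 2 lower (11.1%, against 19.5%). The other 12 did not pass, and the median difference over the 18 was 0.04. Of the 34 member promoters, a CTTTGAT match was found in 2, the second Wnt5b promoter shown above and 1 Wnt11 promoter. The Wnt11 promoter is given for that reason, on the plus strand at chr7:98834862-98835111. The match to the motif's reverse complement is in capitals.
Wnt11 promoter: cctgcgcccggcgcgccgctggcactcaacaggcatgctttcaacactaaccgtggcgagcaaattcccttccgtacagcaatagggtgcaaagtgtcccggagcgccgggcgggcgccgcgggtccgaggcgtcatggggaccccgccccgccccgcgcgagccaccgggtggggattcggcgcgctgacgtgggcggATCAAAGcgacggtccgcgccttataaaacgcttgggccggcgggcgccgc

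**Figure D2:**
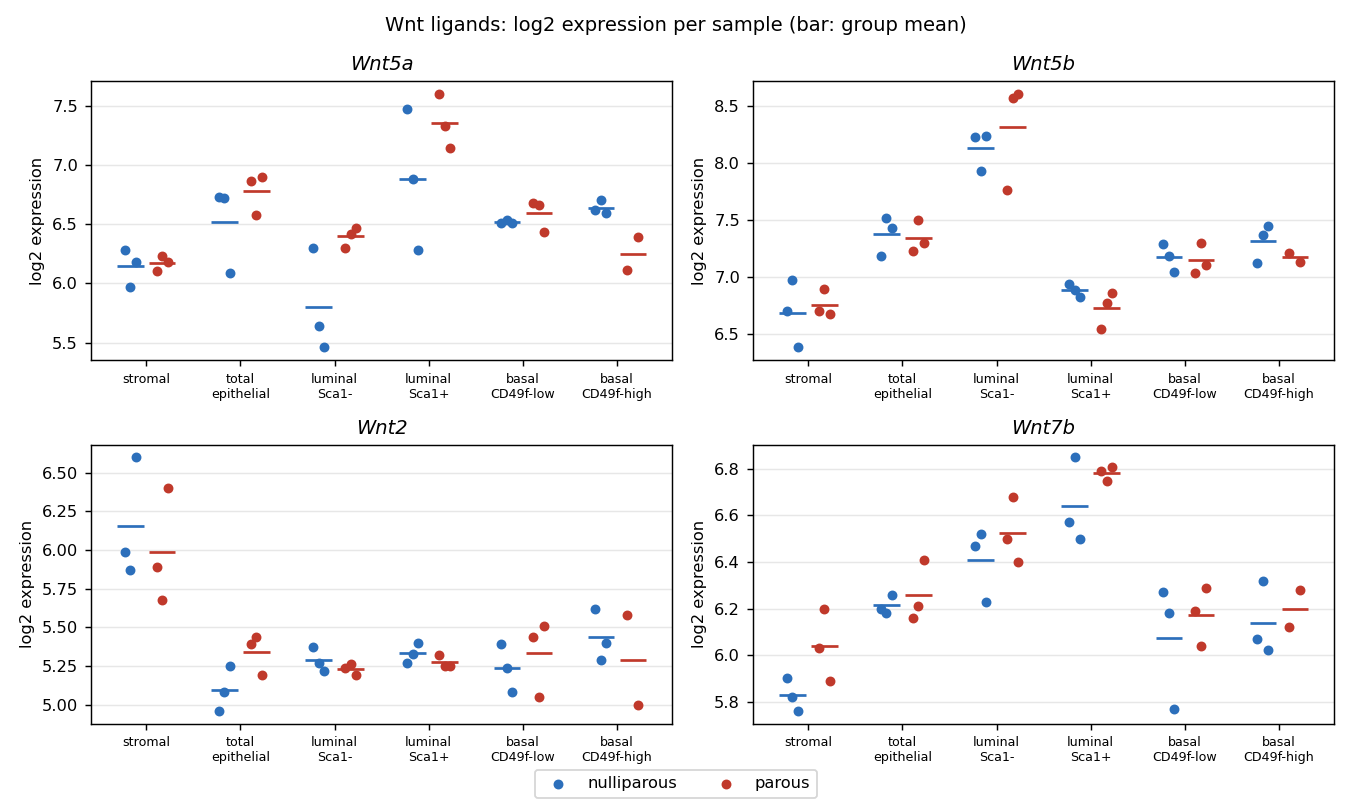
Log2 expression of Wnt5a, Wnt5b, Wnt2 and Wnt7b in every sample, by subpopulation and history (blue nulliparous, red parous; the short bar is the group mean, and the y axes do not start at 0). Wnt5b is highest in luminal Sca1-negative samples, Wnt5a in Sca1-positive samples, and Wnt2 in stromal samples.

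Of the genes of ligand secretion, Wls was lowest in luminal Sca1-negative cells. Wls samples there lay between 7.31 and 7.97 (median 7.66, n = 6), and Sca1-positive samples between 7.94 and 8.49 (median 8.32, n = 6). The ranges overlap narrowly and the difference was 0.66 (SE 0.09, adjusted p = 4.9e-06). CD49f-low, CD49f-high and stromal samples had medians of 8.62, 8.56 and 8.54, and basal minus luminal was 0.67 (SE 0.07, adjusted p = 2.8e-09). Porcn did not pass in any of the 5 comparisons between subpopulations, but pair by pair it was lower in Sca1-negative than in CD49f-low cells (-0.42, SE 0.15, adjusted p = 0.0444).

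Of the 4 R-spondins, Rspo1 was the one with a group mean above 6.0. It lay between 6.82 and 8.46 in luminal Sca1-negative samples (median 7.29, n = 6) and between 6.27 and 6.73 in Sca1-positive samples (median 6.53, n = 6), without overlap. The difference was -1.02 (Sca1-positive minus Sca1-negative, SE 0.14, adjusted p = 2.6e-06), and basal minus luminal was -0.31 (SE 0.10, adjusted p = 0.0195). Of these calls, the basal one was lost in 6 of 15 other settings (-0.45 to -0.22, adjusted p up to 0.151), among them the fit on basal and luminal samples alone. Medians in the other sorted cells were 6.77 (stromal), 6.71 (CD49f-low) and 6.65 (CD49f-high). Rspo3 was dim but higher in stromal cells, with samples between 4.28 and 5.07 against 4.03 to 4.37 in total epithelial cells (0.55, SE 0.10, adjusted p = 7.6e-05). Rspo2 and Rspo4 did not pass in the 5 comparisons between subpopulations; pair by pair, Rspo2 was lower in stromal than in Sca1-negative cells (-0.21, SE 0.08, adjusted p = 0.0322) and than in CD49f-high cells (-0.21, SE 0.08, adjusted p = 0.0475).

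The Rspo1 promoter is shown because Rspo1 is the member called lower with parity in Sca1-negative cells, a call lost in some other settings. It held no match to the searched motifs and so has no capitals. It lies on the plus strand at chr4:124986180-124986429 (RefSeq, GRCm38.p6).
Rspo1 promoter: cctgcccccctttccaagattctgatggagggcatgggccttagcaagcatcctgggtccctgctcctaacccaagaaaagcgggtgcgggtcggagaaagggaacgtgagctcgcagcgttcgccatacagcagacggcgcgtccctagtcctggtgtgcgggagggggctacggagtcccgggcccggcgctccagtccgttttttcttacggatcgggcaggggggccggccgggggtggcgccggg

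Of the 10 Frizzled receptors, 6 were higher and 1 lower in basal than in luminal cells. Fzd7, a receptor known for its part in mammary basal stem cell function, lay between 9.53 and 10.15 in CD49f-low samples (median 9.96, n = 6) and between 9.55 and 10.08 in CD49f-high samples (median 9.61, n = 5). Sca1-negative samples lay between 7.45 and 8.64 (median 7.99, n = 6) and Sca1-positive samples between 6.76 and 7.45 (median 7.15, n = 6). No basal sample reached down to the luminal range, and Fzd7 differed by 2.32 (SE 0.06, adjusted p = 3.4e-22), a 5.00-fold difference. Within the luminal cells it was lower in Sca1-positive ones (-0.87, SE 0.09, adjusted p = 8.5e-09), without overlap. Stromal samples lay between 8.19 and 8.57, below the total epithelial samples of 9.42 to 9.85.

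The Fzd7 promoter is given because Fzd7 had the parity difference with the smallest adjusted p. It lies on the plus strand at chr1:59481897-59482146, runs over the 250 bases before the start site and held no match to the searched motifs.
Fzd7 promoter: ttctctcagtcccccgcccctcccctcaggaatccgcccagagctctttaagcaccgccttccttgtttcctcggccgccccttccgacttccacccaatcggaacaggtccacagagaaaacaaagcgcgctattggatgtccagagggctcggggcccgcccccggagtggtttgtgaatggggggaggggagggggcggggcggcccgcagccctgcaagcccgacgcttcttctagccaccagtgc

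Fzd3, a receptor known from the planar polarity branch, was the second basal Frizzled. Its CD49f-low samples lay between 7.91 and 8.88 and its CD49f-high samples between 7.97 and 8.70, against 6.04 to 7.05 in Sca1-negative and 6.32 to 6.91 in Sca1-positive samples. The basal and luminal ranges do not touch, and the difference was 1.85 (SE 0.12, adjusted p = 3.6e-13). Stromal samples lay between 5.97 and 7.07, and stromal minus total epithelial was -1.76 (SE 0.17, adjusted p = 1.2e-09). Fzd2 (0.65, SE 0.07), Fzd1 (0.46, SE 0.09), the dim Fzd8 (0.28, SE 0.07) and Fzd9 (0.15, SE 0.05) were higher in basal cells by smaller amounts. Pair by pair, Fzd9 passed between the luminal subpopulations and CD49f-high cells but not CD49f-low cells (luminal minus CD49f-low -0.05 and -0.01). Fzd8 passed with CD49f-low cells but not CD49f-high cells (luminal minus CD49f-high -0.10 and -0.18). Fzd1 passed in the luminal and basal pairs except Sca1-negative minus CD49f-high (-0.29, SE 0.12, adjusted p = 0.0957). Of 8 fibroblast markers 3 were also higher in basal than in luminal cells (Lum by 0.99, Dcn by 0.48 and Col1a2 by 0.25), with a mean level of the list of 5.78 to 7.15 per basal and 5.77 to 6.23 per luminal sample. Fzd1 was highest in stromal cells, and the part of stromal cells in these differences was not tested.

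Fzd6, a receptor of the planar polarity branch in skin, went the other way. Sca1-positive samples lay between 7.61 and 8.15 (median 7.97, n = 6), Sca1-negative between 7.38 and 7.80, CD49f-low between 6.98 and 7.45 and CD49f-high between 6.13 and 7.56. Basal minus luminal was -0.66 (SE 0.12, adjusted p = 4.7e-05). Pair by pair, Fzd6 passed in the luminal and basal pairs except Sca1-negative minus CD49f-low (0.40, SE 0.16, adjusted p = 0.0894). Stromal samples lay between 5.53 and 6.38, below all total epithelial samples, which began at 6.97, and the difference was -1.39 (SE 0.16, adjusted p = 6.8e-08).

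Of the Frizzleds, Fzd4, Fzd1 and Fzd2 were higher in stromal than in total epithelial cells. Fzd1 differed by 0.57 (SE 0.12, adjusted p = 2.9e-04), with stromal samples of 7.20 to 8.02 and total epithelial samples of 6.73 to 7.39, which overlap, and Fzd2 by 0.33 (SE 0.10, adjusted p = 0.0133). Fzd4, a receptor known from blood vessels, had the largest of the 3 differences. Stromal samples lay between 7.07 and 8.17 (median 7.68, n = 6) and total epithelial samples between 5.33 and 5.96 (median 5.75, n = 6), without overlap (1.93, SE 0.18, adjusted p = 5.4e-10). The 6 endothelial markers were also higher in stromal cells, 6 of 6, with a mean level of 7.08 to 8.49 per stromal sample and 5.11 to 6.10 per total epithelial sample; their part in the Fzd4 difference was not tested. Fzd4 was also higher in Sca1-positive than in Sca1-negative luminal cells (0.54, SE 0.18, adjusted p = 0.0367), with samples of 5.85 to 6.48 and 5.45 to 5.96. That call was lost without any 1 of 7 of the 12 luminal samples (0.45 to 0.61, adjusted p up to 0.123). Of the endothelial list 0 of 6 were called there, with 2 histories that differed (4.87 to 5.33 in nulliparous and 5.64 to 6.09 in parous Sca1-positive samples). Fzd5 was lower in Sca1-positive cells by a small amount (-0.26, SE 0.09, adjusted p = 0.0489), and Fzd10 did not pass in the 5 comparisons between subpopulations.

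Of the 5 co-receptors, Ryk, a receptor with an inactive kinase domain, was higher in basal than in luminal cells. CD49f-low samples lay between 8.74 and 9.21 (median 8.89, n = 6) and CD49f-high samples between 8.49 and 10.08 (median 8.59, n = 5), against 7.75 to 8.28 over both luminal subpopulations. The groups do not overlap and the difference was 0.92 (SE 0.09, adjusted p = 1.0e-09). Ror1 (0.43, SE 0.08) and Lrp6 (0.41, SE 0.07) were higher in basal cells as well. Pair by pair, Ror1 did not pass between Sca1-negative and CD49f-high cells (Sca1-negative minus CD49f-high -0.10, SE 0.12, adjusted p = 0.631). It passed in the other luminal and basal pairs. Lrp5, the other beta-catenin co-receptor, did not pass there (0.02, SE 0.07, 95% interval -0.12 to 0.16), but was higher in Sca1-positive than in Sca1-negative cells (0.29, SE 0.09, adjusted p = 0.0274; lost without any 1 of 6 of the 12 samples, adjusted p up to 0.0959) and lower in stromal than in total epithelial cells (-0.50, SE 0.09, adjusted p = 9.2e-05), with samples of 6.91 to 7.13 and 7.36 to 7.72. Ror2 was called in the stromal comparisons, with 0.29 (SE 0.08) against total epithelial cells.

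The secreted inhibitors held the widest ranges between subpopulations. Sfrp4 lay between 9.02 and 9.45 in stromal samples (median 9.33, n = 6) and between 4.02 and 4.62 in total epithelial samples (median 4.27, n = 6). No epithelial sample of any sort came near the stromal range, since the highest value was 5.18. The stromal minus total epithelial difference was 5.01 (SE 0.14, adjusted p = 1.3e-21), a 32.1-fold difference.

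Sfrp2 lay between 8.97 and 9.55 in stromal samples and between 6.48 and 8.03 in total epithelial samples (1.91, SE 0.22, adjusted p = 3.0e-08). Dkk2 lay between 6.43 and 7.30 in stromal samples and between 5.84 and 6.01 in total epithelial samples (0.99, SE 0.11, adjusted p = 8.5e-09). Neither overlapped. Sfrp2 also divided the luminal cells, with 6.54 to 7.65 in Sca1-negative and 5.49 to 6.48 in Sca1-positive samples (-1.22, SE 0.22, adjusted p = 1.0e-04).

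Wif1, Dkk3 and Sfrp1 were inhibitors of the basal cells. Wif1 lay between 7.97 and 8.38 in CD49f-low and between 7.66 and 8.39 in CD49f-high samples, against 5.39 to 5.86 in Sca1-negative, 5.16 to 5.72 in Sca1-positive and 5.61 to 6.14 in stromal samples. It did not overlap between basal and luminal cells, and the difference of 2.59 (SE 0.10, adjusted p = 6.4e-19) was 6.01-fold. Dkk3, a Dkk relative not known to act on Lrp5 or Lrp6, lay between 6.66 and 7.85 over both basal subpopulations and between 5.38 and 6.15 over both luminal ones (1.48, SE 0.12, adjusted p = 3.9e-11).

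Sfrp1 spread widely within subpopulations. CD49f-low samples lay between 7.65 and 9.06 (median 8.43, n = 6), CD49f-high between 7.06 and 8.71 (median 7.88, n = 5), Sca1-negative between 5.58 and 7.12 (median 6.62, n = 6) and Sca1-positive between 4.02 and 5.86 (median 4.86, n = 6). Basal and luminal samples overlapped narrowly, and the difference was 2.51 (SE 0.13, adjusted p = 1.9e-15). Sca1-positive cells were below Sca1-negative cells (-1.51, SE 0.18, adjusted p = 2.7e-07). Stromal samples, between 7.71 and 8.26, lay within the basal range (stromal minus basal did not pass). Dkk1, Dkk4 and Sfrp5 were dim and did not pass in the 5 comparisons between subpopulations; pair by pair, Sfrp5 was lower in Sca1-negative than in CD49f-high cells (-0.26, SE 0.09, adjusted p = 0.0349).

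Markers of other cells moved with the Sca1 comparison. In Sca1-positive cells 5 of 8 basal markers were lower than in Sca1-negative cells and none higher, and the mean level of the list was 6.16 to 6.68 per Sca1-positive sample and 6.70 to 7.48 per Sca1-negative sample. Sfrp1, Fzd7, Ror1 and Sfrp2, lower in Sca1-positive cells, were also higher in the basal than in the luminal mean, whereas Wnt5b and Rspo1 were lower. Pair by pair, Wnt5b was lower in Sca1-positive than in CD49f-low (-0.35, adjusted p = 0.0262) and CD49f-high cells (-0.44, adjusted p = 0.00930). Rspo1 did not pass in those pairs (-0.23 and -0.18). Sfrp2 did not pass between Sca1-negative and CD49f-low (-0.07) or CD49f-high cells (0.27). The macrophage and dendritic list was also apart, with 5.71 to 6.13 per Sca1-positive and 6.26 to 6.63 per Sca1-negative sample and 1 of 5 lower (Cd14, -2.27). Of the 2 Schwann and neural genes 1 was lower (Sox10, -0.67), and of 8 fibroblast markers 1 was higher (Dcn, 1.53) and 1 lower (Pdgfra, -0.67). The part of these cells in the differences was not tested.

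**Figure D3:**
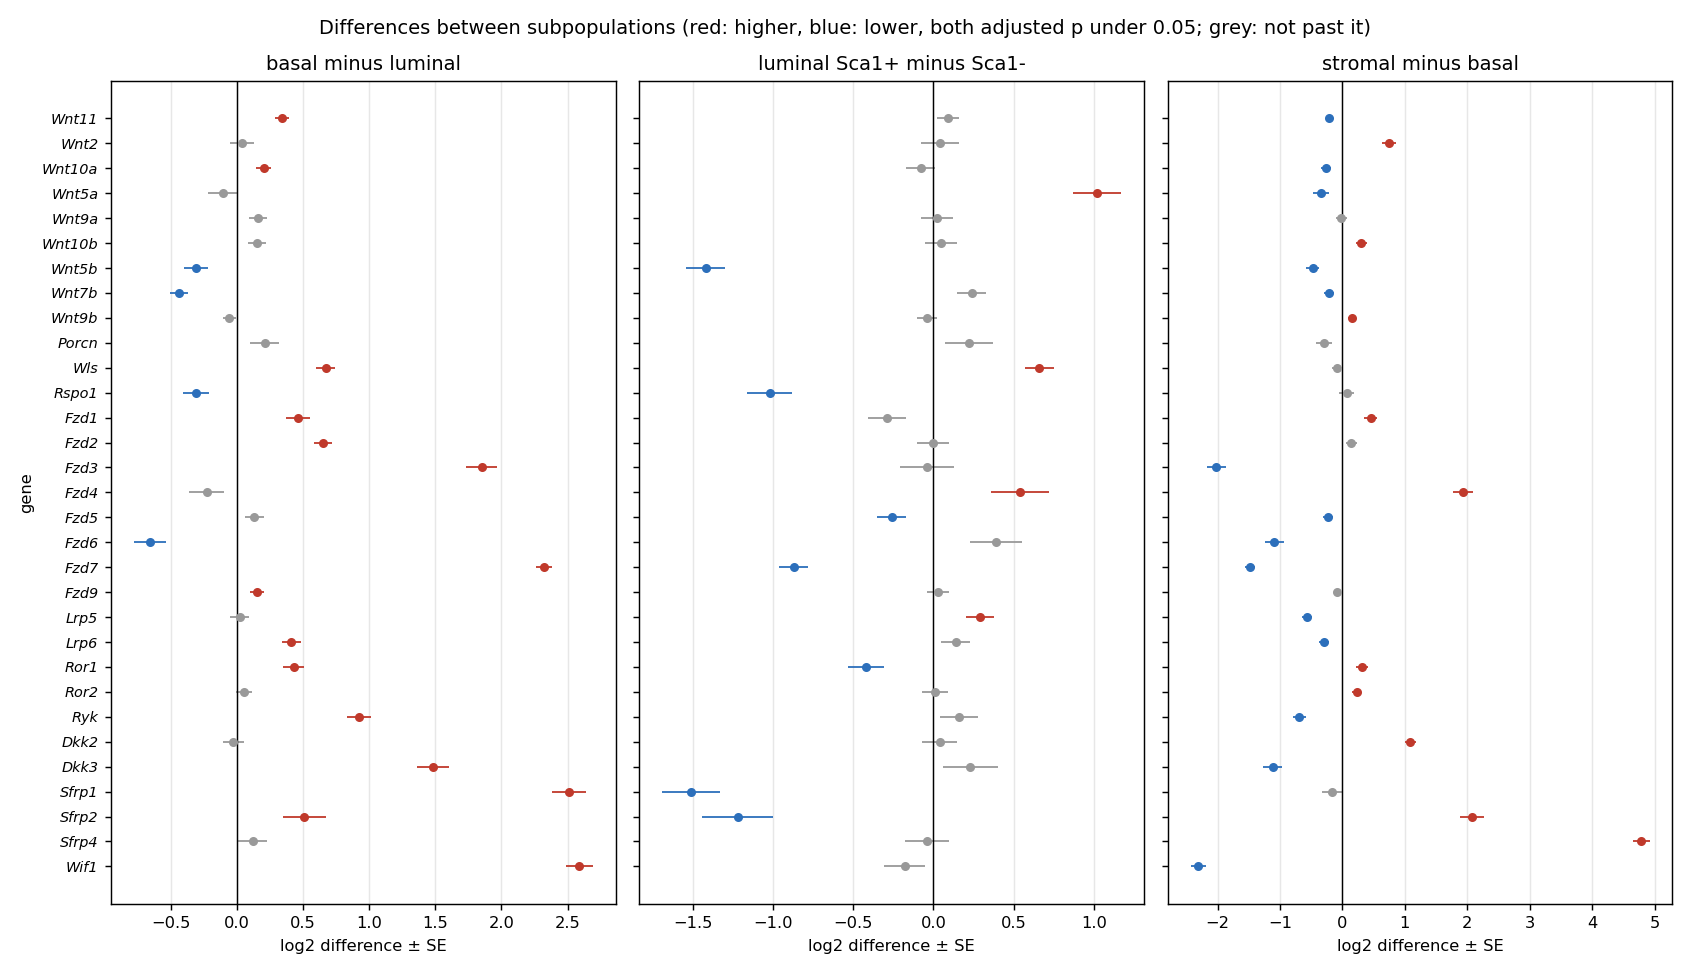
Log2 difference ± SE (moderated limma fit) of the 31 members with a group mean above 6.0 in 3 comparisons: basal minus luminal, Sca1-positive minus Sca1-negative and stromal minus basal (red higher, blue lower, both at an adjusted p under 0.05; grey did not pass). Wif1, Sfrp1 and Fzd7 lie above 2 in the first panel, Wnt5a and Wnt5b lie on opposite sides of 0 in the second, and Sfrp4 reaches 4.79 in the third.

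Parity was examined by comparing parous with nulliparous samples within each subpopulation and as the mean effect over the 4 sorted epithelial subpopulations. In that mean, 3 of 48 members were called (6.25%, against 6.20% of all genes), Sfrp1, Fzd7 and Ryk. All 3 rose (2.72% of all genes) and none fell (3.49%). The median parity difference over the 48 members was -0.01, and over all genes it was -0.00. The share of members called was thus near that of all genes. Of 8 basal markers 4 also rose in that mean (Cnn1 by 0.60, Krt14 and Myh11 by 0.48 and Krt5 by 0.39), the neural marker Sox10 rose by 0.32, the macrophage marker Cd68 by 0.44, and the stromal marker Dcn fell by 0.88; their part in the member differences was not tested.

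Sfrp1, which binds Wnts and was higher in basal than in luminal cells, rose with parity in the mean and in 3 of the 4 sorted epithelial subpopulations. Parous Sca1-positive samples read 5.68, 5.86 and 5.02 against 4.02, 4.43 and 4.70 in nulliparous ones. Parous CD49f-low samples read 8.78, 8.84 and 9.06 against 7.85, 7.65 and 8.09, and parous CD49f-high samples 8.37 and 8.71 against 7.80, 7.06 and 7.88. In these 3 subpopulations every parous sample lay above every nulliparous one. Of all genes, 12.9%, 14.3% and 27.7% were without overlap there. Parous Sca1-negative samples read 7.12, 6.93 and 6.54 against 5.58, 5.91 and 6.70, which overlap.

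The mean effect on Sfrp1 was 0.98 (SE 0.13, 95% interval 0.71 to 1.25, adjusted p = 1.8e-05), a 1.98-fold rise. By subpopulation the difference was 1.14 in Sca1-positive cells (SE 0.26, adjusted p = 0.0277), 1.03 in CD49f-low cells (SE 0.26, adjusted p = 0.0460), 0.96 in CD49f-high cells (SE 0.29, adjusted p = 0.0323) and 0.80 in Sca1-negative cells (SE 0.26, adjusted p = 0.158). Total epithelial samples read 8.66, 8.47 and 8.62 in parous and 8.05, 7.57 and 7.51 in nulliparous mice, without overlap (15.0% of all genes), but the difference of 0.88 did not pass (SE 0.26, adjusted p = 0.181). In stromal cells it was 0.00 (SE 0.26, 95% interval -0.52 to 0.53). A test of whether the parity effect on Sfrp1 differed among the 6 subpopulations did not pass (adjusted p = 0.347).

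The mean effect on Sfrp1 kept its call in all 15 other settings (0.88 to 1.17) and without any 1 of 23 samples (0.92 to 1.06). The calls within single subpopulations were less secure: the CD49f-low call was lost without any 1 of its 6 samples (0.92 to 1.14, adjusted p up to 0.227) and the Sca1-positive call without parous replicate 1 or 2 or nulliparous replicate 1 or 2 (0.96 to 1.16, adjusted p up to 0.225).

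Fzd7, a Wnt receptor, also rose in the mean. In Sca1-negative cells the parous samples read 8.64, 8.28 and 8.25 and the nulliparous ones 7.45, 7.47 and 7.72. In CD49f-low cells they read 10.15, 10.04 and 10.10 against 9.53, 9.63 and 9.87, and in CD49f-high cells 10.06 and 10.08 against 9.61, 9.56 and 9.55. Sca1-positive samples read 7.45, 7.18 and 7.23 against 6.76, 7.11 and 6.85. In each of these 4 subpopulations all parous samples lay above all nulliparous ones. Of all genes, 17.7% were without overlap in Sca1-negative, 12.9% in Sca1-positive, 14.3% in CD49f-low and 27.7% in CD49f-high cells.

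The mean effect on Fzd7 was 0.54 (SE 0.06, 95% interval 0.41 to 0.67, adjusted p = 2.4e-06), a 1.45-fold rise. It kept its call in all 15 other settings (0.48 to 0.57) and without any 1 of 23 samples (0.51 to 0.56). The difference was 0.84 in Sca1-negative cells (SE 0.12, adjusted p = 1.8e-04) and 0.50 in CD49f-high cells (SE 0.14, adjusted p = 0.0191), while 0.42 in CD49f-low cells (SE 0.12, adjusted p = 0.108) and 0.38 in Sca1-positive cells (SE 0.12, adjusted p = 0.301) did not pass. In total epithelial cells it was 0.25 (SE 0.12, adjusted p = 0.700) and in stromal cells 0.13 (SE 0.12, adjusted p = 0.816). The test among subpopulations gave an adjusted p of 0.132.

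In luminal Sca1-negative cells 2 of 48 members were called (4.17%, against 1.00% of all genes), Fzd7 with its rise and Rspo1 with a fall. Rspo1 read 7.26, 6.83 and 6.82 in parous samples and 7.33, 8.46 and 8.30 in nulliparous samples. Nulliparous replicate 1 lies close to the parous samples, and the other 2 lie well above them. The log2 fall of Rspo1 was -1.06 (SE 0.20, adjusted p = 0.00355), a 2.08-fold difference. Without nulliparous replicate 2 it was -0.84 and did not pass (adjusted p = 0.0632), and it did not pass in the fit on Sca1-negative samples alone (-1.06, adjusted p = 0.146). The Rspo1 call was kept in 10 of 15 other settings (-1.41 to -0.84 over the 15). It was also lost when nulliparous replicate 2 or 3, or parous replicate 2 or 3, was left out of every subpopulation. The parity difference of Rspo1 was 0.06 in CD49f-low cells (SE 0.20), 0.09 in CD49f-high cells (SE 0.22), -0.23 in Sca1-positive cells (SE 0.20) and -0.20 in stromal cells (SE 0.20). The difference between its basal and its luminal parity effects was 0.72 (SE 0.21, adjusted p = 0.0648), and the test among all 6 subpopulations gave an adjusted p of 0.110, so a difference between subpopulations was not called.

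Basal markers moved with parity in the Sca1-negative cells. Of 8, 3 rose (Krt5 by 1.30, Cnn1 by 1.21 and Myh11 by 0.93) and none fell, and the mean level of the list was 6.70 to 6.96 per nulliparous and 7.28 to 7.48 per parous sample, without overlap. Fzd7 was itself higher in basal cells and Rspo1 lower. The part of basal cells in either parity difference was not tested. The dim Wnt6 (-0.38, SE 0.10, adjusted p = 0.0598), Sfrp1 and Wnt5a (0.60, SE 0.21, adjusted p = 0.217) came next in order of p and did not pass. With array weights 4 members were called, Wnt6 and Wnt5a among them, with parous Wnt5a samples of 6.30, 6.42 and 6.47 and nulliparous samples of 6.30, 5.64 and 5.46.

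In luminal Sca1-positive cells Sfrp1 was the 1 member called of 48 (2.08%, against 0.607% of all genes). Endothelial markers differed there, with a mean level of 4.87 to 5.33 per nulliparous and 5.64 to 6.09 per parous sample, though 0 of 6 passed. Of 8 basal markers 1 rose (Krt14 by 1.54), with a mean level of the list of 6.16 to 6.59 per nulliparous and 6.46 to 6.68 per parous sample. In basal CD49f-low cells Sfrp1 was again the 1 member called (2.08%, against 0.968% of all genes). The fibroblast list there was 6.69 to 7.15 per nulliparous and 6.20 to 6.43 per parous sample, with 1 of 8 lower (Lum, -1.70), and in Sca1-positive cells 1 of 8 was lower (Dcn, -1.35), while in CD49f-low cells 0 of 8 basal markers passed. The part of these cells in the Sfrp1 differences was not tested.

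In basal CD49f-high cells 5 members were called (10.4%, against 9.06% of all genes), 4 higher (8.33%, against 4.01%) and 1 lower in parous cells (2.08%, against 5.05%). Ryk read 10.08 and 8.92 in the 2 parous samples and 8.59, 8.52 and 8.49 in the nulliparous samples. Parous replicate 2 stands apart from the other 4 samples, and the other parous sample lies nearer to the nulliparous ones. The difference of 0.97 (SE 0.19, adjusted p = 0.00164) became 0.39 without parous replicate 2 (adjusted p = 0.180), and the mean effect over 4 subpopulations went from 0.34 (SE 0.09, adjusted p = 0.0171) to 0.20 (adjusted p = 0.0711). That fit left 1 parous sample in the group, which was assumed to vary like the other groups. The mean effect on Ryk kept its call in 10 of 15 other settings (0.17 to 0.51 over the 15). It was lost in the fit on the compared subpopulations alone. The same held when nulliparous replicate 2 or 3, or parous replicate 1 or 2, was left out of every subpopulation.

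Fzd2 read 6.76 and 6.38 in parous and 6.09, 5.97 and 5.91 in nulliparous CD49f-high samples (0.58, SE 0.16, adjusted p = 0.0183). Ror1 read 6.89 and 6.71 in parous and 7.05, 7.63 and 7.47 in nulliparous samples, and fell by 0.58 (SE 0.18, adjusted p = 0.0358). Sfrp1 and Fzd7 were the other 2 called. The parous and nulliparous samples of all 5 genes do not overlap, but so it was for 14 of 48 members and for 27.7% of all genes in this comparison. In the other subpopulations the parity differences of Fzd2 were -0.28 to 0.07 and those of Ror1 -0.30 to -0.04, and none passed.

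No CD49f-high parity call of a member was kept in every setting. Leaving out 1 sample at a time, Sfrp1 was lost without parous replicate 2 (1.13) or 3 (0.79) or nulliparous replicate 2 (0.70), Fzd7 without either parous sample or nulliparous replicate 2 or 3 (0.49 to 0.51), Fzd2 without parous replicate 2 (0.39) or nulliparous replicate 2 (0.57) or 3 (0.54), and Ror1 without any but nulliparous replicate 1 (-0.67 to -0.46), with adjusted p up to 0.256. Fitted on the samples of CD49f-high cells alone, 0 members were called, and with array weights 1 (Ryk). Without parous replicate 2 it was also 0, and Ror1 was lost under quantile normalization (-0.53, adjusted p = 0.0544), where Fzd9 passed instead, so that 5 were higher and 0 lower. Basal markers rose here too, 3 of 8 (Oxtr by 1.43, Myh11 by 0.89 and Cnn1 by 0.80), with a mean level of 9.92 to 10.40 per nulliparous and 10.54 to 10.76 per parous sample. The macrophage list was 5.56 to 6.20 and 6.19 to 6.42, and the endothelial list 5.49 to 6.76 and 4.97 to 5.63. The Schwann and neural list, with 2 genes measured, was 6.39 to 6.60 and 6.90 to 7.32, without overlap, and 1 of 2 rose (Sox10 by 0.95). The part of these cells in the parity differences was not tested.

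Krt5 (-1.85) and Krt14 (-2.0), basal keratin genes, fell with parity in stromal cells. There limma called 0 of the 48 members, against 0.597% of all genes, and 2 had an unadjusted p under 0.05. In total epithelial cells it called 0, against 0.446% of all genes, and 4 had an unadjusted p under 0.05. The stromal parity differences of the 48 members lay between -0.30 and 0.33. Fzd3 had the lowest total epithelial difference (-0.65, SE 0.24, adjusted p = 0.427), and it was also below 0 in CD49f-low (-0.58, SE 0.24) and CD49f-high cells (-0.62, SE 0.27) without passing.

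For differences between the basal and luminal parity effects, 0 members were called by limma, against 2.04% of all genes, with 9 at an unadjusted p under 0.05. The test among all 6 subpopulations also called 0, against 2.80% of all genes, with 6 at an unadjusted p under 0.05. The largest basal minus luminal values were 0.72 (Rspo1) and -0.78 (Sfrp2, SE 0.31, adjusted p = 0.235), followed by Wnt5a at -0.69 (SE 0.22, adjusted p = 0.101).

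**Figure D4:**
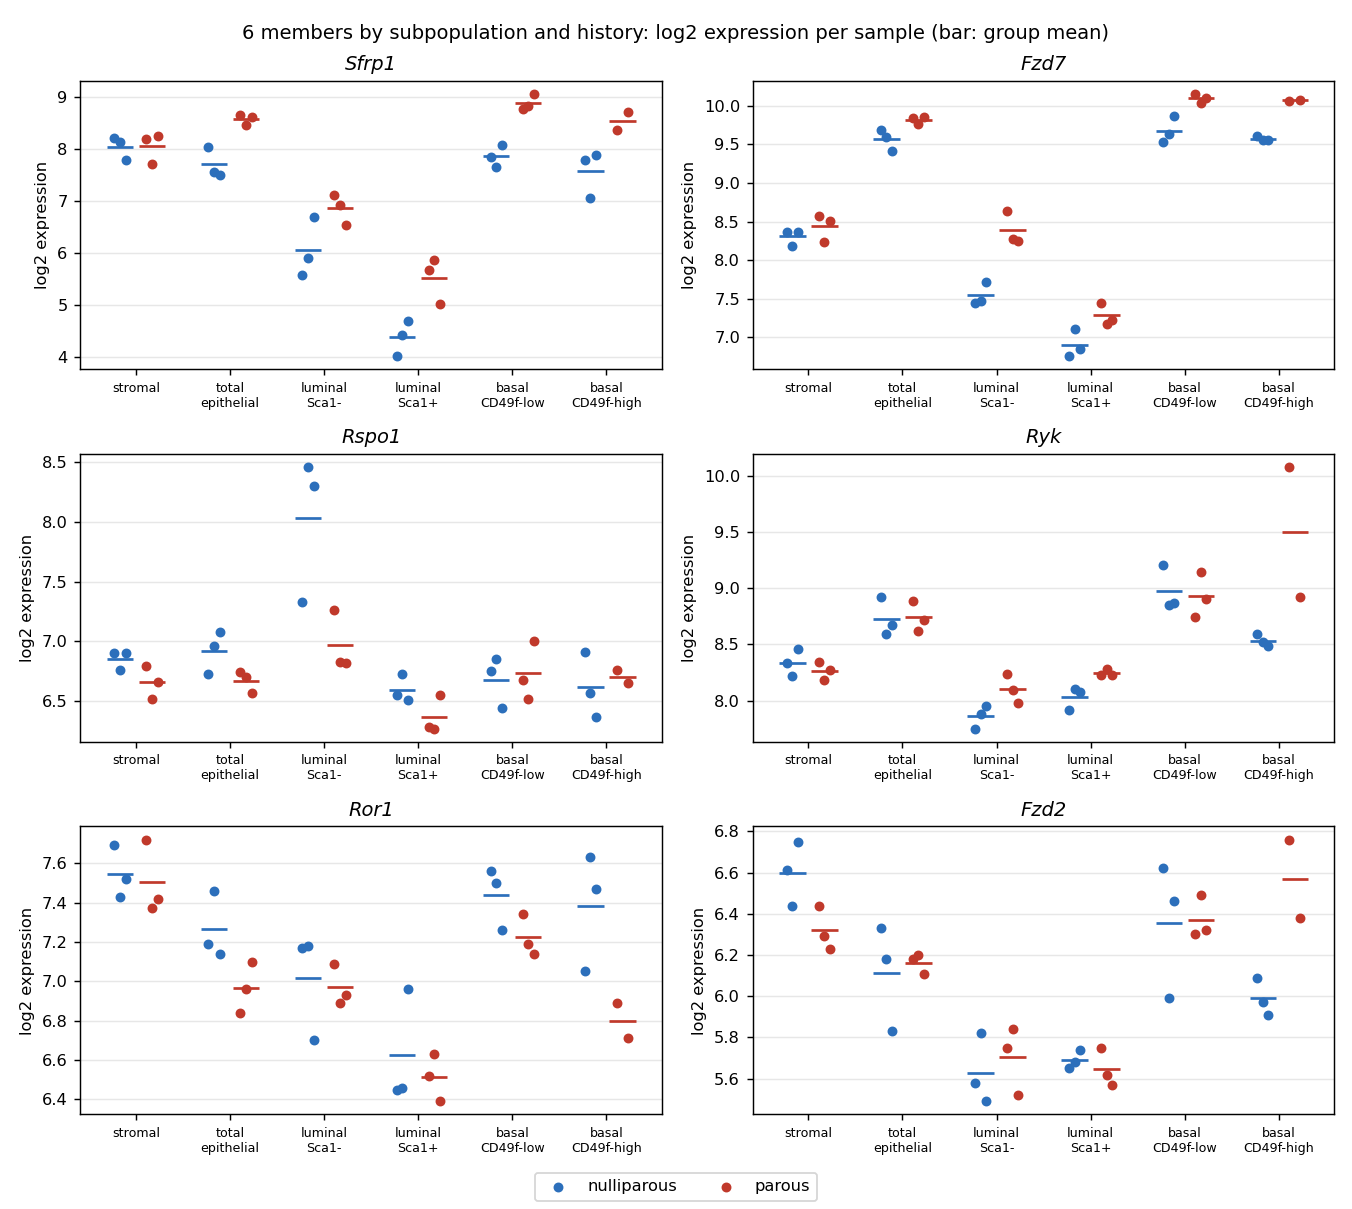
Log2 expression of the 6 members called in a parity comparison, in every sample, by subpopulation and history (blue nulliparous, red parous; the short bar is the group mean, and the y axes do not start at 0). Parous Fzd7 samples lie above nulliparous ones in the 4 sorted epithelial subpopulations, Rspo1 is high in 2 nulliparous Sca1-negative samples, and 1 parous CD49f-high sample of Ryk reaches 10.08.

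Other genes of the pathway were followed through lists. The receptors of R-spondins and the ligases they block were higher in basal than in luminal cells, 5 of 5 (15.5% of all genes): Lgr5 by 3.16 (SE 0.08), Lgr4 by 2.40 (SE 0.10), Lgr6 by 1.03 (SE 0.08), Znrf3 by 0.69 (SE 0.11) and Rnf43 by less. The median over the list was 1.03, against 0.00 over all genes. In Sca1-positive cells Lgr4 was lower than in Sca1-negative cells (-1.60, SE 0.14), with Lgr6 (-0.72, SE 0.11) and Lgr5 (-0.44, SE 0.11), so 3 of 5 were lower (7.11% of all genes) and none higher.

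With parity, 3 of these 5 fell in the mean over sorted subpopulations (3.49% of all genes): Znrf3 by 0.36 (SE 0.11), Lgr5 by 0.35 (SE 0.08) and Lgr6 by 0.31 (SE 0.08). The Lgr5 fall was by 1.58 in CD49f-high cells (SE 0.18, adjusted p = 1.3e-06), and the difference between basal and luminal parity effects was -0.97 (SE 0.16, adjusted p = 8.2e-04). These values place most of the mean Lgr5 fall in CD49f-high cells, so it was not a fall shared by all sorted subpopulations. Whether it holds with samples of that sort left out was not tested. Lgr4 rose by 0.80 in Sca1-negative cells (SE 0.20, adjusted p = 0.0389), and its basal minus luminal parity difference was -0.80 (SE 0.20, adjusted p = 0.0310). The mean level of the basal marker list also differed in these samples (6.70 to 6.96 per nulliparous and 7.28 to 7.48 per parous sample, 3 of 8 higher), and its part in the Lgr4 rise was not tested.

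Of 25 measured genes of Wnt signal transduction, 10 were higher and 5 lower in basal than in luminal cells, with a median difference of 0.15. Of all genes, 15.5% were higher and 19.5% lower in this comparison, so the share of lower genes was near the background. The transcription factor gene Tcf7l1 (1.08, SE 0.13), the corepressor gene Tle1 (1.06, SE 0.11) and Axin2 (1.02, SE 0.10), a feedback target of beta-catenin signalling, were higher, and Apc (-0.90, SE 0.09), a part of the beta-catenin destruction complex, and Csnk1e (-0.84, SE 0.10), a casein kinase gene, were lower. Between the luminal subpopulations 5 of 25 were called (16.1% of all genes), 2 higher and 3 lower in Sca1-positive than in Sca1-negative cells. Tle4 (-1.30, SE 0.16) and Tcf7l2 (-1.24, SE 0.08) were among the lower ones. For the mean parity effect 0 of 25 passed with limma, and Axin2 differed by -0.10 (SE 0.10, adjusted p = 0.691). In CD49f-high cells 4 of 25 passed for parity, 1 higher (4.01% of all genes) and 3 lower (5.05%), and none passed in the other subpopulations. For the difference between basal and luminal parity effects, 3 of 25 were lower and none higher (2.04% of all genes were called).

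Of 19 other secreted or membrane modulators, 10 were higher and 2 lower in basal than in luminal cells (15.5% and 19.5% of all genes), with a median difference of 0.51. The glypican genes Gpc6 (2.23, SE 0.10) and Gpc3 (1.71, SE 0.12), Dact1 (2.18, SE 0.13) and Sostdc1 (1.38, SE 0.13) were among the higher ones, and Dkkl1 (-2.09, SE 0.14) and Wnt4 (-0.47, SE 0.07) were the lower ones. With parity, 4 of 19 fell in the mean effect (3.49% of all genes) and none rose (2.72%): the antagonist gene Sostdc1 by 0.69 (SE 0.13), Nkd2, an inhibitor of Dishevelled, by 0.45 (SE 0.10), the Dkk receptor gene Kremen1 by 0.33 (SE 0.07) and the proteoglycan gene Sdc1 by 0.33 (SE 0.09). Within the 4 sorted epithelial subpopulations, the parity calls of this list lay in basal cells alone. There were 2 lower in CD49f-low cells (0.968% of all genes were called) and 4 lower in CD49f-high cells (5.05%), with 0 in either luminal sort. For basal minus luminal parity effects 2 were lower (2.04% of all genes were called). Whether the mean falls hold without CD49f-high samples was not tested. Of 10 planar polarity genes, 5 were higher in basal cells (15.5% of all genes), led by Prickle2 (0.65, SE 0.09), and 1, Daam1, was lower (-0.31, SE 0.09; 19.5% of all genes).

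Correlations between members were taken over the 10 groups that remain without the total epithelial sort. Among the 16 members whose subpopulation means spanned at least 1 log2 unit, the closest pairs were Dkk2 and Sfrp4 (r = 0.98), Fzd3 and Wif1 (0.97) and Dkk3 and Wif1 (0.96). Fzd7 followed Dkk3 (0.92) and Sfrp1 (0.88). Fzd1 and Fzd6 ran opposite to each other (-0.96), as did Rspo1 and Wnt5a (-0.74). These correlations describe 10 group means that share the same cell sorts, and the 16 members were kept for differing between those sorts. They restate the differences given above and are no separate evidence of a shared pattern. Dkk2, for example, had a mean of 6.90 in stromal cells and of 5.78 to 5.86 in the luminal and basal sorts. Sfrp4 had 9.28 and 4.35 to 4.54. Of neighbouring gene pairs in the genome, Wnt6 and Wnt10a had r = 0.80 and Wnt3a and Wnt9a 0.52, whereas Wnt3 and Wnt9b had -0.65 and Wnt1 and Wnt10b -0.15. These neighbours did not reach the span of 1 log2 unit: their subpopulation means spanned 0.09 (Wnt3a) to 0.47 (Wnt10b). Wnt1, Wnt3, Wnt3a and Wnt6 were also dim. Such small spans cannot show whether neighbours vary together.

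Promoters of 31 of the 48 members, 34 in all, were taken from the RefSeq table (GRCm38.p6), each from 250 bases before to 50 after the start site. CTTTGAT was found on either strand in 3.73% of all 32851 promoters and in 2 of 34 here. It lay on the gene's own strand in the second Wnt5b promoter shown, at base -71 counted from the start site. In Wnt11 it lay on the opposite strand at base -51. CTTTGAA, a variant, was in 5.14% of all promoters and in 1 of 34 (Dkk1, at base -117). TTCNNNGAA was in 8.30% and in 1 of 34 (Wnt5b, at base -159), and the palindromic estrogen receptor motif was in 0.0700% and in 0 of 34. No match overlapped another. The 34 promoters were rich in CpG, with a median of 26.5 CpG sites against 7 in all promoters and a median GC content of 67.2% against 52.7%.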

How the data were processed

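The deposited table held log2 expression of 34760 probe sets in 35 samples, which the authors had made from Affymetrix arrays. The submitters' processing notes name the affy package; its version and the normalization and build used were not given in the sources used here. Column medians lay between 5.813 and 5.924. Of the probe sets, 21640 had 1 gene symbol in the platform annotation, 1321 had several and 11799 none. Each of 19937 genes was represented by its single-symbol probe set with the highest mean, and the others were left out. Groups followed the labels' titles and descriptions.

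In R 4.3.3, limma 3.58.1 fitted 12 group means (eBayes with a trend), with Benjamini-Hochberg adjustment over all genes, after the script had been checked on simulated data. The number of samples limits the precision. Members called for parity (up to 6 per comparison) and the 5 largest called differences in each direction between subpopulations are given by group, and up to 4 genes per direction from pathway lists. Members and lists were chosen with earlier results of these data known. Alternatives were no trend, array weights, quantile normalization, no dim genes, mean probe sets, blocks for replicate number or for history and number together (called pool, an assumption), the compared subpopulations alone, a stricter threshold and omitted samples. Omitting whole pools and the fixed pool block were chosen after seeing the data. Promoters came from RefSeq (GRCm38.p6).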

Additional observations from a re-analysis of the deposited data

How the results depend on the processing

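Counts are members called. Between subpopulations, the 4 comparisons with calls kept counts within 1.5 times under all settings at an adjusted p under 0.05; between CD49f-high and CD49f-low cells the count went from 0 to 1 with quantile normalization and was 0 to 2 with samples or pools left out. For parity in Sca1-negative cells it went from 2 to 4 with array weights and 1 in the subpopulation alone (left out: 1 to 3). In Sca1-positive cells it went from 1 to 0 in the subpopulation alone and at an adjusted p under 0.01 (left out: 0 to 1). In CD49f-low cells it went from 1 to 2 with array weights, and to 0 with quantile normalization and at an adjusted p under 0.01 (left out: 0 to 1). In CD49f-high cells it went from 5 to 1 with array weights, 0 in the subpopulation alone and 1 at an adjusted p under 0.01 (left out: 0 to 5). The mean parity count of 3 was 2 to 5 with samples left out. For basal minus luminal parity effects it went from 0 to 1 with array weights, quantile normalization, dim genes left out or pool as a random block (left out: 0 to 3), and for the test among subpopulations from 0 to 1 with array weights (left out: 0 to 2). The causes were not tested. With the replicate number as a block, 21 members were called for basal minus luminal, 10 for Sca1, 22 and 26 for the stromal comparisons and 3 for mean parity, and no count moved by over 1.5 times. Same-numbered samples of the 2 histories correlated in their deviations at -0.05 to 0.23 (median 0.07). Other numbers across histories were not compared, so these values cannot show whether the numbers pair the histories. Same-numbered samples of 1 history in different subpopulations correlated at 0.01 to 0.34 (median 0.10) and other numbers at -0.28 to 0.07 (median -0.05). With pool as a fixed block, the Ror1 call in CD49f-high cells was lost (-0.55). Signal over background is unknown for these values, and 17 members were dim in every group.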
